A study of Mus musculus with 6 samples.

Results

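The genes described here are 31 genes of epithelial architecture and injury: 6 keratins, 7 claudins, 7 other tight junction genes and 11 genes of the transitional state that alveolar cells enter after damage. They were taken by symbol from the 23478 genes of the count table. All 31 were found, and all 31 were among the 14477 genes that passed the filter on low counts. RNA was sequenced from adult alveolar type 2 (AT2) cells, the surfactant-making cells of the lung, of Abca3 cKO mice (3 libraries) and control mice (3 libraries), both of mixed strain background. Abca3 encodes the transporter that loads phospholipid into the lamellar bodies of these cells, and cKO stands for its conditional deletion. Mice of both groups received tamoxifen; one label reads as 6 days of dosing before harvest and another as harvest 6 days after it. The labels used here name no Cre driver, deleted exon or control genotype. Nothing in them states that each library is a different animal, so the spread behind the p-values may in part be technical.

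Keratins are the intermediate filaments of epithelial cells, and each filament pairs an acidic type I with a basic type II keratin. Claudins and occludin are the membrane strands of tight junctions, tied to the cytoskeleton by scaffold proteins such as ZO-1 (Tjp1), and claudin 18 is the claudin most typical of the alveolus. When AT2 cells regenerate the alveolus after injury, some pass through a state marked by high Krt8, with Cldn4, Sfn, Lgals3, Clu and Sprr1a among its known marker genes, before they become flat type 1 (AT1) cells.

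Depth was 23531330 to 26071229 counts per library. Levels are in CPM, counts scaled to library size with TMM factors, fold changes are Abca3 cKO over control, and a gene was called at a Benjamini-Hochberg adjusted p under 0.05 over all genes tested by edgeR's quasi-likelihood test. Abca3 stood at 596 ± 22.0 CPM in Abca3 cKO and 672 ± 32.8 CPM in control libraries (SD, n = 3 each) and was not called (log2 fold change -0.17, adjusted p = 0.696). Its total count does not check the genotype labels, since the deleted exons are not given. One library, control replicate 2, differed from the rest in Xist and Y-linked genes, with Xist at 2345 CPM against 5.36 to 9.36 CPM in the other 5 libraries and no count of Ddx3y, Kdm5d or Eif2s3y. Control replicate 2 thus cannot come from the same animal as the other controls. Whether the other 5 libraries are separate animals is not known.

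Most of these epithelial genes stood lower in Abca3 cKO libraries, but few passed the test. By edgeR 2 of the 31 genes fell, Arl4c and Lgals3, and none rose. Over all genes tested, 0.38% were called, 0.117% lower and 0.262% higher. Without control replicate 2, Arl4c alone was called (adjusted p = 0.00937, edgeR). DESeq2 called 5 of the 31 lower (Arl4c, Lgals3, Sfn, Krt8 and Ocln) and 1 higher (Cldn1), against 0.544% of all genes lower and 0.947% higher. At an unadjusted p under 0.05, 9 of the 31 were lower and 2 were higher, against 4.16% of all genes lower and 5.07% higher. A negative log2 fold change was found in 24 of the 31, with a median of -0.22, while 49.7% of all genes were negative and their median was 0.00. The 31 genes and all further lists below were chosen with earlier results of these data known. Their counts are therefore no independent result. In bulk RNA such as this, fewer cells of a type cannot be told apart from less RNA per cell.

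By role, the keratins had a median log2 fold change of -0.42 with 5 of 6 negative, and the transitional state genes -0.40 with 8 of 11 negative. Claudins lay near 0, at -0.07 with 5 of 7 negative, and the other tight junction genes at -0.16 with 6 of 7 negative. In 11 genes every Abca3 cKO library lay below every control library (6.76% of all genes tested), and in 2 genes every one lay above (7.34%). The 11 were Krt7, Krt8, Krt18, Krt80, Ocln, Tjp1, Marveld2, Sfn, Lgals3, S100a6 and Arl4c, and the 2 were Cldn1 and S100a11.

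**Figure D1:**
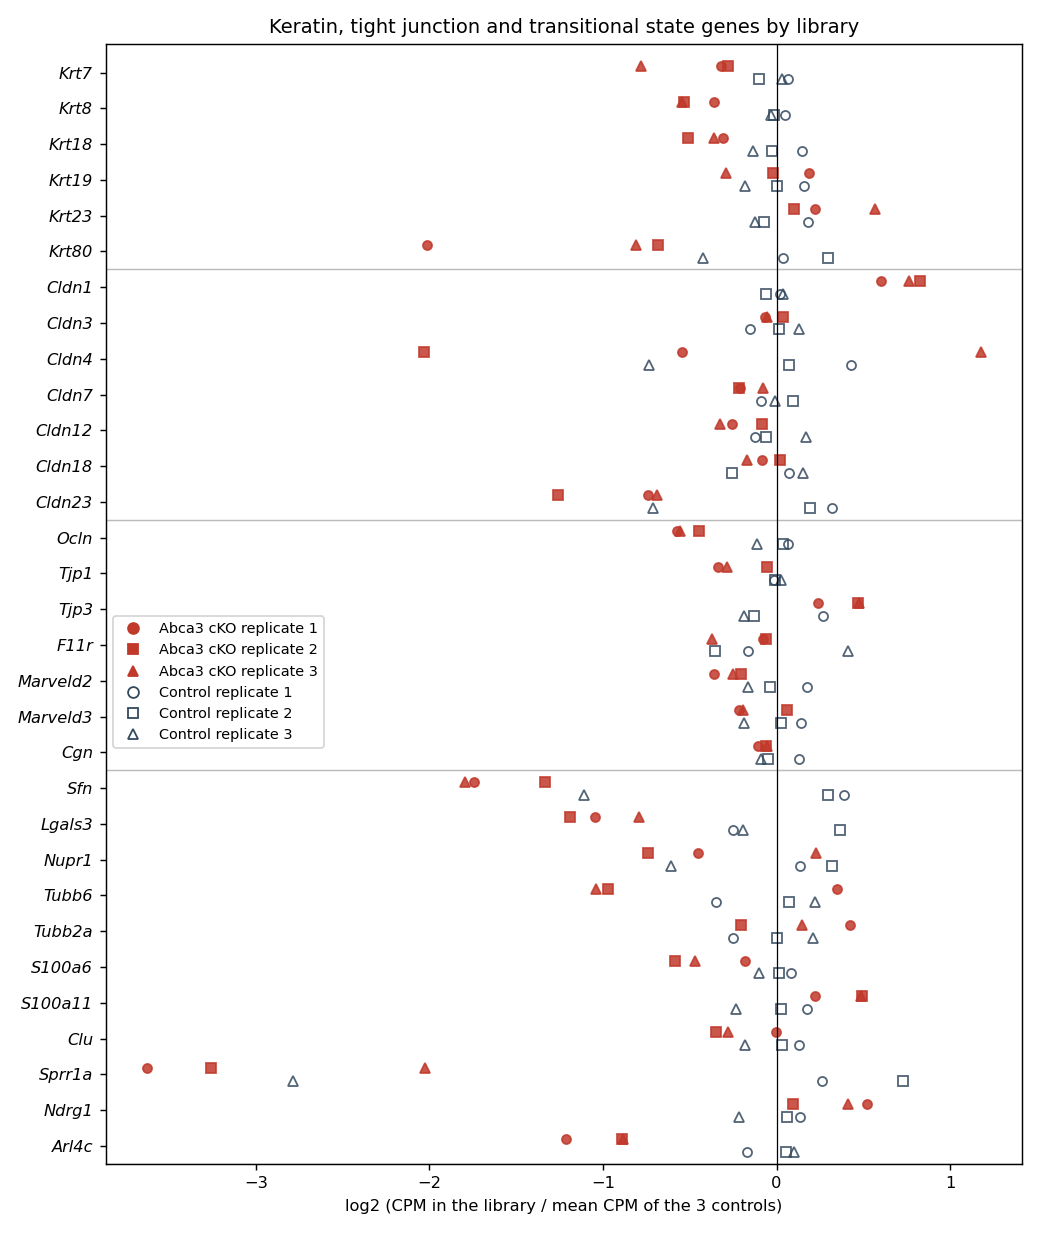
Each of the 31 genes in each library, as log2 of its CPM over the mean CPM of the 3 controls, with Abca3 cKO libraries (filled, upper in each row) and control libraries (open, lower). Arl4c, Lgals3, Krt8 and Ocln separate by group, while Sfn and Sprr1a spread widely among the controls, with control replicate 3 at 8.05 and 8.37 CPM.

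The sequences just upstream of Arl4c and Lgals3 are shown because edgeR called only these of the 31, and that of Sprr1a because it had the largest fold change of the 31 (it was chosen after its values were seen). Each holds the 250 bases before the gene's RefSeq start on GRCm38.p6, read 5′ to 3′ on the gene's own strand. Capitals mark matches on either strand to 4 motifs. The AP-1 motif was searched as TGANTCA, with N for any base. The TEAD motif was searched as GGAATG, the GC box as GGGCGG and the TATA box as TATAAA.
Arl4c, chr1:88702192-88702441, minus strand: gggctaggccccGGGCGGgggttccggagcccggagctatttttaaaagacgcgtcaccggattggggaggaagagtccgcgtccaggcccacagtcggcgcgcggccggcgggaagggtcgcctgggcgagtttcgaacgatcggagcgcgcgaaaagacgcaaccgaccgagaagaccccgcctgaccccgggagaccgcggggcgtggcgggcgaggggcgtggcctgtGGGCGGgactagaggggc
Lgals3, chr14:47373610-47373859, plus strand: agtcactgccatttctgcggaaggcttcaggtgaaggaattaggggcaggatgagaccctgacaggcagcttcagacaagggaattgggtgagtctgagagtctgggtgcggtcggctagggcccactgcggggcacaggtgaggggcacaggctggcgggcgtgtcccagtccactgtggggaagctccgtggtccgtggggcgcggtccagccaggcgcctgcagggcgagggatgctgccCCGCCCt
Sprr1a, chr3:92485882-92486131, minus strand: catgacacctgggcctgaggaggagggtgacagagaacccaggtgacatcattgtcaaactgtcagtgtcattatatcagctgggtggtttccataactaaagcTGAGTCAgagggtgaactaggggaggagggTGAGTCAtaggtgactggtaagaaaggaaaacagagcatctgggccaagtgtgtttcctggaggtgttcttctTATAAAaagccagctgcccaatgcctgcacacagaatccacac
All 3 RefSeq starts lie inside the GENCODE spans given with the genes' values, so the Lgals3 window lies within its span and the Arl4c and Sprr1a windows reach into theirs at the 3′ end.
The Arl4c window was the most GC-rich of the 3, at 71.6% G and C with 35 CpG pairs, and held 2 GC boxes. Lgals3 held 1 GC box at 66.0% G and C with 13 CpG pairs. Sprr1a held 2 AP-1 matches and 1 TATA box, with 49.6% G and C and 0 CpG pairs. Of 32851 such windows 6.75% held the AP-1 letters, 12.6% the TEAD letters, 32.7% a GC box and 12.4% the TATA letters, and the median window had 52.4% G and C with 6 CpG pairs. Among the 31 windows on record for 24 of the genes, AP-1 letters stood in 4 (Cldn4, F11r, S100a11 and Sprr1a), TEAD letters in 1 (Cldn7), a GC box in 19 and TATA letters in 4. The letters are a description of these windows, and some genes have several overlapping windows.

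Among the transitional state genes, Arl4c gave the clearest difference. Arl4c (chromosome 1, 88673125 to 88702221, minus strand, GRCm38) encodes an ARF-like small GTPase. It stood at 47.8, 59.7 and 60.1 CPM in Abca3 cKO replicates 1, 2 and 3, against 98.6, 115 and 119 CPM in control replicates 1, 2 and 3. The groups did not overlap, and the highest Abca3 cKO library lay well below the lowest control. Arl4c fell to 50.4% of the control level (95% interval 41.6% to 61.1%), or -0.99 on the log2 scale (SE 0.129; edgeR adjusted p = 0.00343). Leaving out any 1 library did not end the call.

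Lgals3 (chromosome 14, 47367751 to 47386160, plus strand), the galectin-3 gene, had 15.1, 13.7 and 18.1 CPM in Abca3 cKO libraries and 26.3, 40.3 and 27.4 CPM in control libraries. Every Abca3 cKO value lay below every control, and control replicate 2 was the highest of all. Lgals3 fell to 49.998% of the control level (95% interval 37.4% to 66.8%; SE of the log2 fold change 0.195), with an edgeR adjusted p of 0.0417. Leaving out any 1 library ended the call, with adjusted p from 0.0631 to 0.200, and without control replicate 2 the log2 fold change was -0.78 (adjusted p = 0.146).

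Sfn and Sprr1a had larger fold changes and were not called by edgeR, while DESeq2 called Sfn lower. Sfn (chromosome 4, 133600556 to 133602168), which encodes 14-3-3 sigma, an epithelial adaptor protein induced by p53, had 5.19, 6.89 and 5.01 CPM in Abca3 cKO and 22.8, 21.4 and 8.05 CPM in control libraries. The groups did not overlap, but control replicate 3 lay nearer to the Abca3 cKO libraries than to the other controls. The log2 fold change was -1.61 (SE 0.347, adjusted p = 0.101, edgeR), and without control replicate 3 it was -1.96 with an adjusted p of 0.00280. Sprr1a (chromosome 3, 92483952 to 92485895), a small proline-rich protein that is cross-linked into the envelope of squamous cells, had 4.68, 6.03 and 14.2 CPM in Abca3 cKO and 69.2, 95.9 and 8.37 CPM in control libraries. Here the groups overlapped, since control replicate 3 lay below Abca3 cKO replicate 3. The ratio was 14.4%, with a 95% interval from 1.82% to 113% (adjusted p = 0.577, edgeR).

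**Figure D2:**
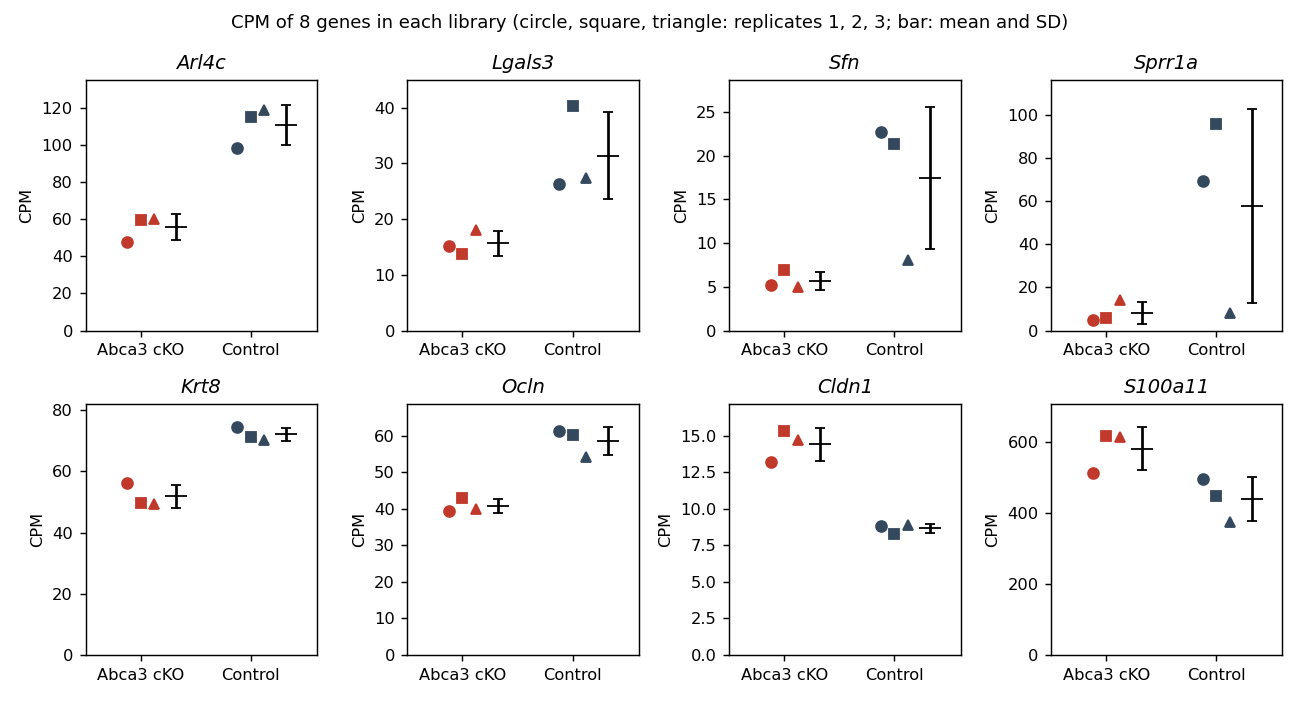
CPM of 8 genes in each library, with Abca3 cKO left and control right, points for replicates 1, 2 and 3 (circle, square, triangle) and a bar for mean and SD. Control replicate 3 falls among the Abca3 cKO values for Sprr1a and just above them for Sfn, but not for Arl4c, Lgals3, Krt8 or Ocln.

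The S100 genes of the list, which encode small calcium-binding proteins, had fold changes of opposite sign. S100a6 had 59.6, 45.0 and 48.8 CPM in Abca3 cKO libraries and 71.5, 68.1 and 63.0 CPM in control libraries (log2 fold change -0.40, SE 0.134). S100a11 (chromosome 3, 93520488 to 93526287) had 513, 618 and 615 CPM in Abca3 cKO and 497, 448 and 375 CPM in control libraries (log2 fold change 0.40, SE 0.131). Neither pair of groups overlapped, and neither difference passed the test over all genes by edgeR (adjusted p = 0.311 and 0.286). Of the other 9 genes tested whose symbols start with S100 (S100pbp, not an S100 protein, included), edgeR and DESeq2 called none, 6 had positive log2 fold changes, and S100a10 had the smallest p (38.5 ± 2.27 CPM in Abca3 cKO, 29.7 ± 1.56 CPM in control, SD, n = 3 each; adjusted p = 0.383 by edgeR).

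The remaining 5 transitional state genes overlapped between the groups. The stress response regulator Nupr1 ranged from 57.9 to 113 CPM in Abca3 cKO and from 63.4 to 121 CPM in control libraries. Clu, the extracellular chaperone clusterin, ranged from 107 to 136 CPM in Abca3 cKO and from 119.8 to 149 CPM in control libraries. Ndrg1, a hypoxia-responsive gene, ranged from 15.7 to 21.1 CPM in Abca3 cKO and from 12.6 to 16.1 CPM in control libraries. The last pair encode tubulin beta chains: Tubb6 had 14.3 CPM in Abca3 cKO replicate 1 but 5.72 and 5.45 CPM in replicates 2 and 3, against 8.79 to 13.1 CPM in control libraries, and Tubb2a had 15.3 to 23.5 CPM in Abca3 cKO against 14.7 to 20.3 CPM in control libraries. Tubb2a is nearly identical to Tubb2b, so counts may be shared between them. Their adjusted p ran from 0.621 to 0.899 by edgeR. Exons of Ndrg1 overlap Gm17035, annotated as antisense, and Gm2895, annotated as a bidirectional promoter lncRNA, and the library kit does not record the strand.

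Krt8 and its usual filament partner Krt18 both stood lower in all Abca3 cKO libraries, short of the threshold by edgeR. Krt8 (chromosome 15, 101996698 to 102004482, minus strand), a type II keratin, had 56.1, 49.8 and 49.5 CPM in Abca3 cKO and 74.6, 71.2 and 70.4 CPM in control libraries. Krt18, type I and a near neighbour of Krt8 (chromosome 15, 102028180 to 102032027), had 41.8, 36.3 and 40.4 CPM in Abca3 cKO and 57.4, 50.8 and 47.2 CPM in control libraries. Neither pair of groups overlapped. Krt8 stood at 71.9% of control (95% interval 60.3% to 85.7%; log2 fold change -0.48, SE 0.119, adjusted p = 0.127, edgeR) and Krt18 at 76.2% (62.4% to 93.1%; adjusted p = 0.335). DESeq2 called Krt8 lower (adjusted p = 0.0292) but not Krt18 (adjusted p = 0.232). Counts of Krt8 per count of Krt18 were 1.34, 1.37 and 1.23 in Abca3 cKO and 1.30, 1.40 and 1.49 in control libraries, so the ratio of the partners overlapped between the groups.

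The other keratins did not share one direction. Krt7, a type II keratin of simple epithelia, had 48.0, 49.4 and 34.8 CPM in Abca3 cKO and 62.7, 55.9 and 61.2 CPM in control libraries (adjusted p = 0.311, edgeR). Krt80, a further type II keratin, stood lowest of the 6 per length (2.05 RPKM in Abca3 cKO and 4.32 RPKM in control on average), with 2.28, 5.72 and 5.25 CPM in Abca3 cKO and 9.42, 11.3 and 6.86 CPM in control libraries (adjusted p = 0.279). Neither gene's groups overlapped. Krt19, the type I keratin with the highest RPKM of the 6, had 111, 95.9 and 79.4 CPM in Abca3 cKO and 109, 97.3 and 85.9 CPM in control libraries, a ratio of 98.1% (95% interval 80.1% to 120.2%). Krt23, also type I, had 51.3, 47.3 and 65.2 CPM in Abca3 cKO and 49.98, 41.9 and 40.4 CPM in control libraries, and Abca3 cKO replicate 2 lay within the control range. The type II genes, Krt7, Krt8 and Krt80, thus all stood lower without overlap, and of the type I genes Krt18 alone did.

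Compared per length, the type II share of the keratin signal was lower in all Abca3 cKO libraries. On the authors' RPKM scale (reads scaled to transcript length and library depth), the 3 type II genes summed to 68.2, 61.2 and 54.2 RPKM in Abca3 cKO and 92.04, 84.1 and 92.2 RPKM in control libraries. The 3 type I genes summed to 137, 107 and 112 RPKM in Abca3 cKO and 141, 124 and 121 RPKM in control libraries. The sums of the type II genes did not overlap between the groups and those of the type I genes did. Type II RPKM per type I RPKM was 0.518 ± 0.0474 in Abca3 cKO and 0.697 ± 0.0564 in control libraries (SD, n = 3 each). With CPM per kilobase of merged annotated exon in place of RPKM, a scaling added after the data were seen, the ratio was 0.294 ± 0.0178 in Abca3 cKO and 0.403 ± 0.0320 in control libraries. The split by keratin type was not among the planned results, and no test was run on these sums. The type II sums restate the lower values of Krt7, Krt8 and Krt80 given above. Krt8 RPKM per Krt18 RPKM overlapped between the groups, at 1.18, 1.21 and 1.06 in Abca3 cKO and 1.14, 1.26 and 1.27 in control libraries. Exons of Krt7, Krt8 and Krt80 overlap annotated noncoding genes on the opposite strand, by 77, 101 and 263 bases.

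**Figure D3:**
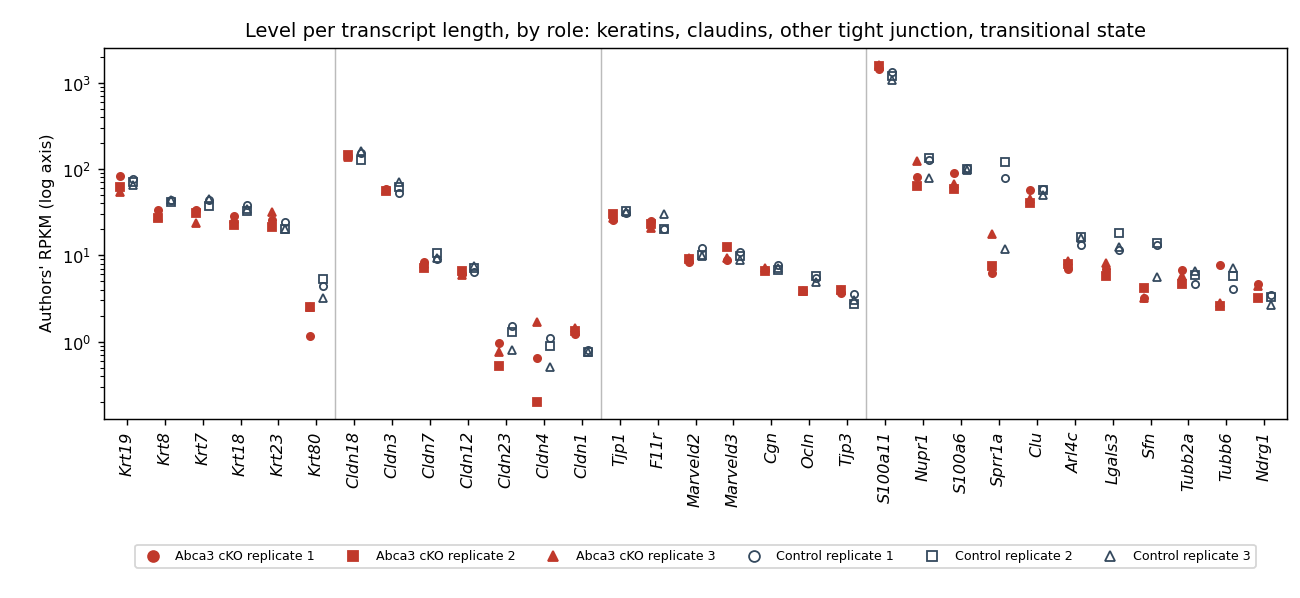
The authors' RPKM of each gene in each library on a log axis, with Abca3 cKO (filled) left of control (open) and genes ordered within each role by their control mean. S100a11 stands highest, Cldn18 and Cldn3 lead the claudins and Krt19 the keratins, and Cldn23, Cldn4 and Cldn1 lie near 1 RPKM.

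The 46 other keratin genes of the table were nearly silent. Together they summed to 7.43 to 14.1 CPM in Abca3 cKO and 3.86 to 9.13 CPM in control libraries, and 17 had no count in any library. Only 7 were tested, all with positive log2 fold changes and none called by edgeR or DESeq2. The 3 with the smallest p were Krt10 (log2 fold change 0.98, adjusted p = 0.631, edgeR), Krt15 (0.85, adjusted p = 0.799) and Krt222 (1.02, adjusted p = 0.804). Of 11 genes that anchor keratin filaments to desmosomes or to other filaments, edgeR and DESeq2 called none, 8 had negative log2 fold changes and the median was -0.06. Plakoglobin (Jup) had the smallest p, at 181 ± 13.4 CPM in Abca3 cKO and 152 ± 12.2 CPM in control (SD, n = 3 each; adjusted p = 0.484 by edgeR).

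Cldn18 made up most of the claudin signal, and its share overlapped between the groups. Of the summed RPKM of the 7 claudins, Cldn18 took 65.5%, 67.0% and 64.7% in Abca3 cKO and 68.2%, 60.9% and 64.2% in control libraries, and Cldn3 took 26.7%, 25.7% and 26.9% in Abca3 cKO and 23.5%, 29.3% and 28.3% in control libraries. Cldn18 had 913, 982 and 860.4 CPM in Abca3 cKO and 1016, 809.5 and 1075 CPM in control libraries, a ratio of 94.98% (95% interval 78.5% to 115%). Cldn3 had 49.1, 52.7 and 49.6 CPM in Abca3 cKO and 46.3, 51.9 and 56.3 CPM in control libraries. On the scale of CPM per kilobase of merged exon, Cldn3 took 14.7% ± 0.410 in Abca3 cKO and 14.4% ± 1.93 in control libraries (SD, n = 3 each), and Cldn18 took 75.7% ± 0.987 in Abca3 cKO and 75.5% ± 2.93 in control libraries. In CPM the control libraries of both genes spanned a wider range than the Abca3 cKO libraries. The ratio for Cldn3 was 98.0% (95% interval 81.1% to 119%).

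Of the 7 claudins, Cldn1 was the one whose groups separated. Cldn1 (chromosome 16, 26356642 to 26371841, minus strand), a barrier-forming claudin, had 13.2, 15.3 and 14.7 CPM in Abca3 cKO and 8.79, 8.30 and 8.89 CPM in control libraries. All Abca3 cKO values lay above all controls, at 166% of the control level (95% interval 125% to 221%), or 0.73 on the log2 scale (SE 0.192; edgeR adjusted p = 0.147). DESeq2 called it higher (adjusted p = 0.0462).

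Cldn4, the claudin linked to the transitional state, was barely detected. It had 1.31, 0.467 and 4.32 CPM in Abca3 cKO, from 31, 12 and 107 counts, and 2.58, 2.01 and 1.15 CPM in control libraries, from 61, 52 and 29 counts. Abca3 cKO held both the highest and the lowest library, and the 95% interval of the ratio, 38.7% to 292%, leaves its size unknown. Cldn23 was equally low, with 1.09 to 1.62 CPM in Abca3 cKO and 1.59 to 3.25 CPM in control libraries. Cldn7 had 8.53 to 9.41 CPM in Abca3 cKO and 9.34 to 10.6 CPM in control libraries, and Cldn12 had 65.0 to 77.0 CPM in Abca3 cKO and 75.0 to 78.1 CPM in control replicates 1 and 2, with 91.7 CPM in control replicate 3. All 4 overlapped between the groups, with adjusted p from 0.631 to 0.984 by edgeR.

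Of 18 other claudin genes 8 were tested and none was called by edgeR or DESeq2, with 4 log2 fold changes positive. Cldn2, which forms cation pores, had the smallest p, with 10.04, 5.41 and 5.82 CPM in Abca3 cKO and 3.46, 3.51 and 2.62 CPM in control libraries (log2 fold change 1.15, SE 0.318, adjusted p = 0.184, edgeR). Cldn15, also a cation channel claudin, had 30.6 ± 10.3 CPM in Abca3 cKO and 20.8 ± 3.33 CPM in control (adjusted p = 0.434), and Cldn10 had 14.1 ± 4.04 CPM in Abca3 cKO and 19.0 ± 1.26 CPM in control (SD, n = 3 each; adjusted p = 0.568). Every Abca3 cKO library exceeded every control for Cldn2 and Cldn15, while Cldn10 overlapped.

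Ocln gave the clearest difference among the other tight junction genes. Occludin (chromosome 13, 100496507 to 100552718, minus strand), a membrane protein of the junction strands, had 39.4, 43.02 and 39.9 CPM in Abca3 cKO and 61.3, 60.1 and 54.2 CPM in control libraries. The groups lay well apart, at 69.6% of the control level (95% interval 57.7% to 83.9%), or -0.52 on the log2 scale (SE 0.126; edgeR adjusted p = 0.119). DESeq2 called it lower (adjusted p = 0.0193). The related gene Marveld2, which encodes tricellulin, had 32.8, 36.6 and 35.4 CPM in Abca3 cKO and 47.7, 41.1 and 37.7 CPM in control libraries. Marveld3 had 31.1, 37.6 and 31.6 CPM in Abca3 cKO and 39.8, 36.8 and 31.7 CPM in control libraries. Only tricellulin separated by group, by a narrow margin (adjusted p = 0.621, edgeR).

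The scaffolds Tjp1, Tjp3 and cingulin had fold changes of either sign, none called by edgeR. Tjp1 (ZO-1), which had the highest RPKM of these 7 genes, had 444, 539 and 460.1 CPM in Abca3 cKO and 554, 557 and 569 CPM in control libraries. The groups did not overlap, and the ratio was 85.8% (95% interval 72.4% to 102%). Tjp3 (ZO-3), whose exons overlap Apba3 by 40 bases, had 11.2, 13.2 and 13.2 CPM in Abca3 cKO and 11.5, 8.73 and 8.37 CPM in control libraries. Its ratio was 132% (95% interval 96.5% to 180%). Cingulin (Cgn) had 57.7 to 59.9 CPM in Abca3 cKO and 58.6 to 68.0 CPM in control libraries. F11r, which encodes the junctional adhesion molecule JAM-A, ranged from 125 to 155 CPM in Abca3 cKO, while control replicate 3 reached 214 CPM and the other controls 126 and 144 CPM. The groups of Tjp3, Cgn and F11r overlapped, and none of the 3 passed the test by edgeR (adjusted p from 0.624 to 0.921).

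Of 23 further genes of tight and adherens junctions and of apical polarity, 17 had negative log2 fold changes, the median was -0.13 and edgeR called none. At an unadjusted p under 0.05, 4 were lower and 1 was higher by edgeR, beside 4.16% of all genes lower and 5.07% higher. The 3 with the smallest p were Pard6b, Ctnna1 and Prkci. Pard6b, a polarity adaptor, had 219, 207 and 176 CPM in Abca3 cKO and 313, 249 and 304 CPM in control libraries (log2 fold change -0.52, adjusted p = 0.115, edgeR), and DESeq2 called it lower. Its kinase partner Prkci had 295 ± 29.3 CPM in Abca3 cKO and 359 ± 16.2 CPM in control (adjusted p = 0.433), and alpha-catenin (Ctnna1) had 474 ± 33.96 CPM in Abca3 cKO and 578 ± 21.0 CPM in control (SD, n = 3 each; adjusted p = 0.411).

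**Figure D4:**
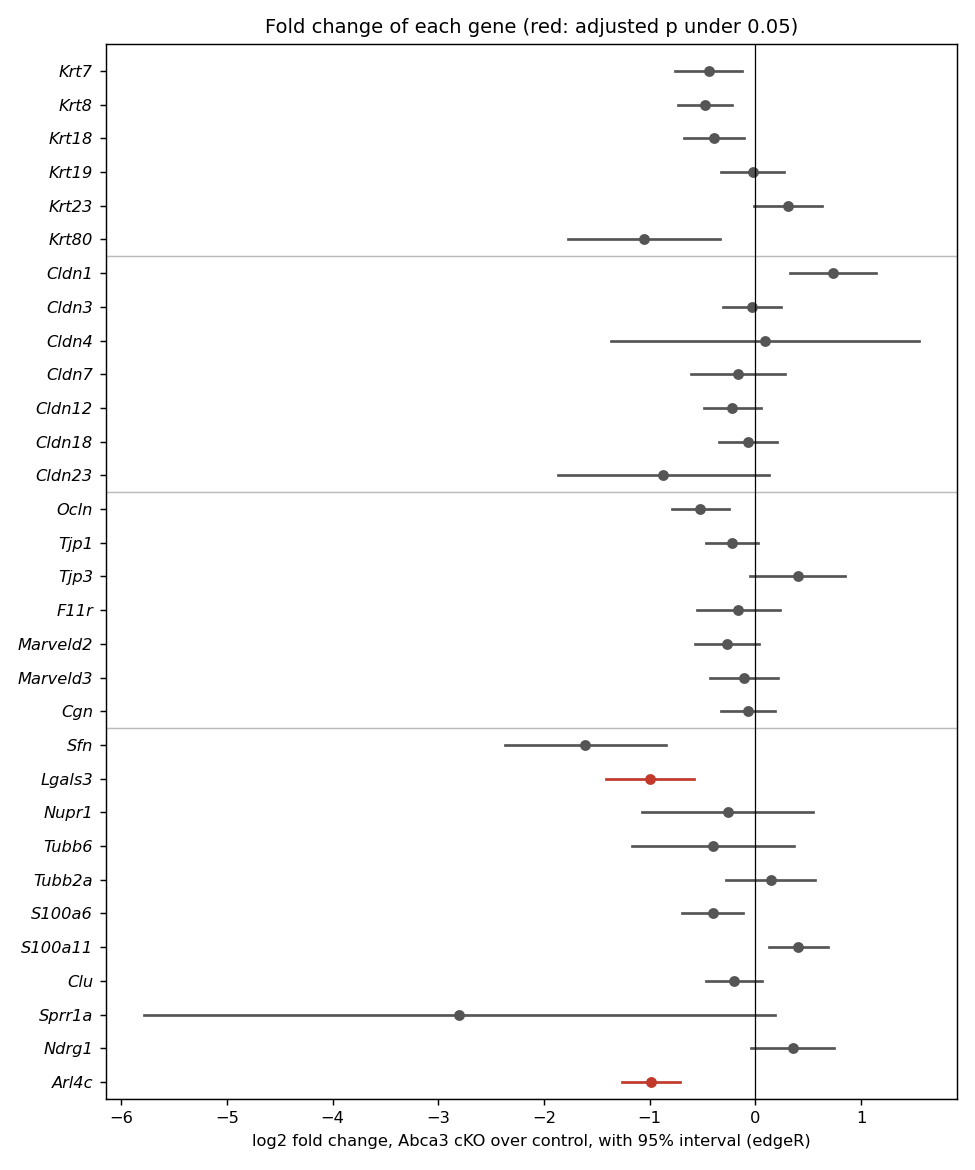
Log2 fold change of each of the 31 genes, Abca3 cKO over control, with its 95% interval from edgeR, grouped as keratins, claudins, other tight junction genes and transitional state genes. Arl4c and Lgals3 (red), at 50.4% and 49.998% of control, were called, and the widest intervals belong to Sprr1a and Cldn4.

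Beyond the 31, 46 of 48 further genes linked to the transitional state or to injury signalling were tested. By edgeR 3 fell and 1 rose, by DESeq2 6 fell and 2 rose, 31 had negative log2 fold changes and the median was -0.21. Over all genes, edgeR called 0.117% lower and 0.262% higher, DESeq2 0.544% lower and 0.947% higher, and 49.7% were negative. This list too was chosen with earlier results of these data known, so its count of calls is no independent result. Of the 46, those that fell by edgeR were the EGF receptor ligand Areg, the NF-kB inhibitor gene Tnip3 and the annexin gene Anxa3. Anxa3, a membrane-binding protein also abundant in AT1 cells, had 87.8, 97.4 and 89.3 CPM in Abca3 cKO and 141, 131 and 145 CPM in control libraries (log2 fold change -0.60, SE 0.107, adjusted p = 0.0267, edgeR). The lipocalin gene Lcn2, an iron-binding defence protein, rose to 985 ± 23.99 CPM in Abca3 cKO, against 386 ± 35.0 CPM in control (SD, n = 3 each; log2 fold change 1.35, adjusted p = 7.51e-05, edgeR). Areg had 5.49, 6.89 and 6.02 CPM in Abca3 cKO and 26.1, 32.9 and 30.9 CPM in control libraries. Of 9 other tubulin genes edgeR called none, and Tuba8 had the smallest p, with 16.5, 16.7 and 12.4 CPM in Abca3 cKO and 7.94, 6.56 and 7.93 CPM in control libraries (edgeR adjusted p = 0.0567). DESeq2 called Tuba8 higher.

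Several of these genes are also made by other lung cells, and the markers of some of those cells moved with the groups. The 10 AT2 markers summed to 92275 to 104001 CPM in Abca3 cKO and 78976 to 93063 CPM in control libraries. Of these 10, 8 had positive log2 fold changes (median 0.35), while 49.7% of all genes were negative. At an unadjusted p under 0.05 by edgeR, 6 were higher and 1 was lower, beside 5.07% of all genes higher and 4.16% lower. Napsa, the aspartic protease napsin A, rose (log2 fold change 0.66, adjusted p = 0.0265, edgeR), beside 0.262% of all genes called higher. DESeq2 called Napsa, Lamp3 and Slc34a2 higher, beside 0.947% of all genes. Sftpc, the surfactant protein C gene, had a log2 fold change of -0.36 and overlapped between the groups. The 10 markers of AT1 cells, which also make Cldn18, summed to 2269 to 3180 CPM in Abca3 cKO and 2982 to 3952 CPM in control libraries. All 10 had negative log2 fold changes (median -0.36), beside 49.7% of all genes. At an unadjusted p under 0.05 by edgeR 4 were lower, beside 4.16% of all genes. None of the AT1 markers was called by edgeR, while DESeq2 called Akap5 and Clic5 lower, beside 0.544% of all genes. Clic5 stood at 583 ± 116 CPM in Abca3 cKO and 887 ± 147 CPM in control (SD, n = 3 each). The 8 mesenchymal markers summed to 1072 to 1615 CPM in Abca3 cKO and 783 to 1045 CPM in control libraries, without overlap. Of these 8, 7 had positive log2 fold changes and 5 were higher at an unadjusted p under 0.05 by edgeR (5.07% of all genes). In 6 of them every Abca3 cKO library lay above every control (7.34% of all genes), and edgeR and DESeq2 called none. The 7 mesothelial markers summed to 361 to 699 CPM in Abca3 cKO and 307 to 389 CPM in control libraries, with 5 of the 6 tested positive. Sums of the 8 club cell markers, led by Scgb1a1, were 57967 to 91703 CPM in Abca3 cKO and 70746 to 88079 CPM in control libraries. Scgb1a1 alone stood at 60835 ± 13498 CPM in Abca3 cKO and 67103 ± 8267 CPM in control (SD, n = 3 each). Sftpc stood at 17536 ± 2601 CPM in Abca3 cKO and 22507 ± 4006 CPM in control. The levels given above are thus those of the whole preparation and not of AT2 cells alone. The 8 ciliated cell markers summed to 320 to 367 CPM in Abca3 cKO and 334 to 382 CPM in control libraries. Basal cell markers summed to at most 12.4 CPM, with Krt5 at 0 in Abca3 cKO replicate 3 and in control replicates 2 and 3. Of the 4 basal markers tested, 3 had positive log2 fold changes, and edgeR and DESeq2 called none. Trp63 had 2.19, 6.46 and 1.01 CPM in Abca3 cKO and 1.48, 0.0772 and 0.397 CPM in control libraries (log2 fold change 2.31, adjusted p = 0.463, edgeR). Immune markers summed to at most 16.6 CPM and endothelial markers to at most 94.97 CPM, most of it Kdr, with Emcn at 0 in all libraries. The part of these cells in the differences above was not tested.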

How the data were processed

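Per the labels' protocols, AT2 cells were obtained by depleting other cells, and their RNA was amplified with the NuGEN Ovation v2 system and made into Nextera XT libraries, a chemistry that does not mark strand. The authors deposited whole-number counts per gene and RPKM values for 6 libraries. Tools listed in the submitters' processing notes, with no role, are TopHat2 2.0.8, DESeq, Bowtie2 2.1.0 and Cufflinks 2.0.2, with the mouse build mm10 (GRCm38). What counted the reads is not given in the sources used here.

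In R 4.3.3, each gene was tested with edgeR 4.0.16 (filterByExpr, TMM, robust glmQLFit, glmQLFTest, group as the only term), two-sided, with Benjamini-Hochberg adjustment over 14477 genes and calls at adjusted p under 0.05. Intervals are 95%, and the SE is the log2 fold change over the square root of F. Coordinates and exon overlaps came from GENCODE M21 (GRCm38), and promoter windows from RefSeq (GRCm38.p6). Alternatives were RLE scaling, no count filter, DESeq2 1.42.0, a replicate block, leaving out each library, and limma 3.58.1 on log2(RPKM + 1) or log2(RPKM + 0.1), kept at RPKM 0.5 or more in 3 libraries or unfiltered. The edgeR, DESeq2 and limma steps were tested on simulated counts, limma after scaling them to depth but not to length. Of 50 genes changed at each size, none near the floor, edgeR called 18% at 1.5-fold and 76% at 2-fold. A gene that was not called may therefore still differ. The genes and lists were chosen with earlier results of these data known. Named genes were the 31, Abca3, and in each further list the called genes and up to 3 with the smallest p, of which the text gives some. Same-numbered replicates were not treated as pairs in the main test.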

Additional observations from a re-analysis of the deposited data

How the results depend on the processing

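Over all genes, 55 calls became 132 without a count filter, 233 with DESeq2, 33 with the replicate block, 27 and 28 with limma on RPKM at pseudocounts of 1 and 0.1, and 2 with limma on unfiltered RPKM. Leaving out 1 library gave 21 to 50. Among the 31 genes, 2 calls became 6 with DESeq2 (Arl4c, Lgals3, Krt8, Ocln and Sfn lower and Cldn1 higher), 1 (Arl4c) with the block and in each limma fit on filtered RPKM, and 0 with limma on unfiltered RPKM. Without 1 library there were 1 to 2, the second being Sfn without control replicate 3. RLE scaling gave 55 and 2. Arl4c was called in 12 of 13 alternatives (adjusted p 1.01e-08 to 0.159) and Lgals3 in 3 (0.000701 to 0.397). The cause of these changes was not tested. Same-numbered libraries showed no clear joint deviation from their group means (r = 0.0762, -0.0304 and -0.0272 for replicates 1, 2 and 3). With 3 libraries per group, this check cannot tell whether the numbers mark pairs.

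Of 403 fold changes recomputed for single genes, 15 reversed sign, none of them called. Cldn4 was -0.39 with the block, -0.057 with limma on RPKM at a pseudocount of 1 (with or without filter), -0.28 at 0.1, and -1.11 to 0.56 without 1 library. Marveld3 was 0.038 with limma on RPKM at a pseudocount of 1 (with or without filter) and 0.040 at 0.1. Without 1 library, Krt19 ranged from -0.15 to 0.088, Cldn18 from -0.19 to 0.0059, Cldn3 from -0.10 to 0.038, F11r from -0.31 to 0.094 and Tubb2a from -0.019 to 0.29. The 31 genes kept a median of -0.25 to -0.19 in every alternative, with 22 to 25 negative. Cldn4 rested on 12 to 107 counts per library.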
